A study of Mus musculus with 36 samples.

Results

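Replication-dependent histone genes, the genes of the core and linker histones made for newly copied DNA, were followed in mouse lung macrophages on 36 Affymetrix Mouse Gene 1.0 ST arrays. Members were all array features annotated with exactly 1 gene symbol that belongs to the clustered histone families H1, H2A, H2B, H3 or H4. The rule gave 29 of 28940 analysed features, which are annotated to 28 genes because H2bc4 has 2 features. They comprised 4 features for linker histone H1, 6 for H2A, 10 for H2B, 3 for H3 and 6 for H4. Of the 28 genes, 23 lie on chromosome 13 and 5 on chromosome 3.

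The macrophages came from Scnn1b-transgenic (Tg) mice and wild-type (WT) littermates, all C57Bl/6N Tac. The transgene drives Scnn1b, a subunit of the epithelial sodium channel, from a promoter of airway club cells, so macrophages are not the cells it targets. Lavage cells were depleted of Ly-6G-positive cells on a magnetic column, and the cells that remained were taken as macrophages. In specific-pathogen-free (SPF) housing mice were taken at postnatal day (PND) 0, 3, 10 and 42, with 3 Tg and 3 WT arrays at PND 0 and 4 Tg and 4 WT arrays at each later age. A further 3 Tg and 3 WT arrays came from germ-free (GF) mice at PND 42. Per the methods, the arrays at PND 0, 3 and 10 were pools of 3 pups, and the PND 42 arrays were from single mice. Age and pooling therefore cannot be told apart in the step from PND 10 to PND 42.

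Histone genes of this type are transcribed mainly while a cell copies its DNA. H2A, H2B, H3 and H4 build the nucleosome core around which DNA is wound, and H1 binds the linker DNA between nucleosomes. Most of their mRNAs end in a stem-loop instead of a poly(A) tail, the stem-loop is bound by Slbp, and the cluster-bound factor Npat drives their transcription. Alveolar macrophages, the main macrophages of lung lavage, expand by division in the airspaces soon after birth, and Mki67, which encodes the Ki-67 protein of cycling cells, served here as a guide to proliferation.

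Promoter sequences are shown for the linker histones and for the members on which the comparisons turned, so that the shared and the differing parts can be seen together. Each is the 150 bases before the RefSeq gene start on GRCm38.p6, written 5′ to 3′ in the direction of the gene. Capitals mark the TATA box letters TATAA, the CCAAT box, the octamer ATTTGCAT of H2A and H2B genes and the H1 box AAACACA on either strand, and some of these overlap each other.
H1f1: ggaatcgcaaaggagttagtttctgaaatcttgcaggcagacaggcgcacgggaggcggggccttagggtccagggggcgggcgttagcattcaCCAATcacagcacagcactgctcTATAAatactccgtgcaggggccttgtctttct
H1f2: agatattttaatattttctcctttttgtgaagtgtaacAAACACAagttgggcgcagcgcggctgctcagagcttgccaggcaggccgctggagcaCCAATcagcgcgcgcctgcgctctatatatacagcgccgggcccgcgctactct
H1f3: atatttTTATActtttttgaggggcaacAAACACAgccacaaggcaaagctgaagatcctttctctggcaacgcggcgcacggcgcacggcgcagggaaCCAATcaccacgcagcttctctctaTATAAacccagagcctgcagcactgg
H1f5: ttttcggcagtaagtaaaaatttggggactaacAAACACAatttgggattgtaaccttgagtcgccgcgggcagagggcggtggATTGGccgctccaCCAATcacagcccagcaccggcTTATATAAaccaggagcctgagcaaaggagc
H2ac4: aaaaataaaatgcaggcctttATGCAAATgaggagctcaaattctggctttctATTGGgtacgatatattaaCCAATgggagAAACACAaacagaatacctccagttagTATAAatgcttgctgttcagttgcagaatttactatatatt
H2bc3: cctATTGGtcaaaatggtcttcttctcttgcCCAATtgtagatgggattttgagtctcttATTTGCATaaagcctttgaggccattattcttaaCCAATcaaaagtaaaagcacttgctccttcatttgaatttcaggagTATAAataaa
H2bc14: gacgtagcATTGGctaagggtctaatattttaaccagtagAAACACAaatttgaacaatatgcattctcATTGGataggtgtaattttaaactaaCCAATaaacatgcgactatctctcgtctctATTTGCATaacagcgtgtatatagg
H4c4: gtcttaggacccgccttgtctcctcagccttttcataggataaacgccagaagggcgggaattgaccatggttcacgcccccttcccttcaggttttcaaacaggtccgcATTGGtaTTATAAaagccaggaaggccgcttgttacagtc
H4c8: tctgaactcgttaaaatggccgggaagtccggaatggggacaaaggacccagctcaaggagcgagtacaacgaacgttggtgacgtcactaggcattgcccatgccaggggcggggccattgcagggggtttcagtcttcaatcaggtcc

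These windows lie at chr13:23763518-23763667 (H1f1), chr13:23738657-23738806 (H1f2), chr13:23554882-23555031 (H1f3) and chr13:21780626-21780775 (H1f5, on the minus strand). The others lie at chr13:23750938-23751087 (H2ac4), chr13:23746584-23746733 (H2bc3), chr13:21721894-21722043 (H2bc14), chr13:23581418-23581567 (H4c4) and chr13:23530894-23531043 (H4c8), and all but H1f5 are on the plus strand. Of the 28 genes, 24 had a promoter sequence. CCAAT was found in 20 of the 24 windows and in 24.5% of 32851 mouse promoter windows of the same length, and TATAA in 15 of the 24 and in 14.2% of all. The octamer was found in 4 of 6 H2A and 4 of 7 H2B windows, in none of the 4 H1, 2 H3 or 5 H4 windows, and in 0.998% of all windows. The H2ac8 and H2bc8 windows overlap on opposite strands, so the same octamer, CCAAT and TATAA letters count for both. The H2ac1 and H2bc1 windows also overlap and share a CCAAT. The H1 box was found in 3 of 4 H1 windows (H1f2, H1f3 and H1f5) and in 3.53% of all, and H1f1 held no such letters. The same box was also found in 1 of 6 H2A windows (H2ac4) and 2 of 7 H2B windows (H2bc1 and H2bc14). No H3 or H4 window held it. The H4c8 window held none of the 4 motifs.

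Array values are log2 intensities after robust multi-array averaging (RMA), and a difference of 1 is a doubling. Differences were tested with limma across all 28940 features, with p-values adjusted over all of them by the Benjamini-Hochberg method and a call at an adjusted p under 0.05. Scnn1b read 10.23, 10.33 and 5.47 on the arrays labelled Tg at PND 0, against 4.06, 5.27 and 6.68 on the WT arrays. By Scnn1b alone, the library labelled Tg PND 0 replicate 3 did not stand apart from WT. At PND 3 Scnn1b was 5.37 to 6.03 in Tg, against 3.09 to 3.55 in WT, and in GF mice 3.47 to 4.18 in Tg, against 3.11 to 3.30 in WT. The genotypes overlapped in SPF mice at PND 10, with 3.26 to 4.10 in Tg and 3.10 to 3.35 in WT, and at PND 42, with 3.41 to 3.69 in Tg and 3.19 to 3.67 in WT, so that Scnn1b does not check those labels. The newborn arrays also carried RNA of marker genes of other cell types, and whether those cells were present was not tested. The paper allows for a small share of epithelial cells, though none were obvious by histology. The mean of 14 lung epithelial markers was 8.31 to 8.86 in Tg and 8.15 to 9.05 in WT arrays at PND 0. On any later array it was at most 5.55. The mean of 15 skeletal muscle markers was 5.32 to 6.28 in Tg and 3.35 to 3.67 in WT arrays at PND 0. By this mean every Tg array, replicate 3 among them, lay above every WT array. The mean of 12 fibroblast markers was 4.22 to 7.16 in Tg and 4.19 to 4.83 in WT arrays at PND 0, and at most 3.62 on any later array. The mean of 10 erythroid markers was 3.53 to 6.44 in Tg and 3.52 to 3.79 in WT arrays at PND 0. The mean of 18 alveolar macrophage markers was 8.34 to 8.92 in Tg and 8.80 to 9.38 in WT arrays at PND 0, and 9.40 or more on every array from PND 3 on. In all such comparisons, fewer cells of a type and less RNA per cell cannot be told apart.

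The 29 features spanned most of the measured range, and 25 had a mean above 4.06, the highest median of any array. A mean at or below that value is called near background here. Levels of different features are not comparable, because each is read by its own probes. By mean over all arrays the 3 brightest H1 features were H1f2 (9.28), H1f5 (8.48) and H1f1 (6.16), and the 3 brightest H2A features were H2ac21 (8.73), H2ac4 (8.23) and H2ac15 (6.52). Among H2B the brightest were H2bc14 (9.61), one H2bc4 feature (9.51) and H2bc8 (7.24), while the other H2bc4 feature averaged 3.72. Among H4 they were H4c4 (11.11), H4c14 (9.54) and H4c6 (7.67). The 3 H3 features were dim, with means of 4.89 for H3c15, 4.86 for H3c4 and 3.77 for H3c7. Most annotated members are short genes of 375 to 903 bases, whereas H2bc4, H2bc21 and H2bc22 are annotated over 8282, 2667 and 14079 bases.

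Between birth and PND 3, 10 of the 29 histone features rose in Tg and 16 in WT, as did most of the measured genes of DNA copying and mitosis given below. In Tg macrophages 10 features were called higher and 1 lower at PND 3 than at PND 0, against 16.0% of all features higher and 14.0% lower, and without the library labelled Tg PND 0 replicate 3, 11 were called higher and 1 lower. In WT macrophages 16 were called higher and 0 lower, against 14.0% and 12.0% of all features. The median change of the members was 0.49 in Tg and 0.62 in WT, and all 10 features that rose in Tg were among the 16 that rose in WT. By class, 3 of 4 H1, 1 of 6 H2A, 4 of 10 H2B, 0 of 3 H3 and 2 of 6 H4 features rose in Tg, and 3, 4, 5, 0 and 4 rose in WT. H2bc1, and in WT also H2ac1, were near background at both ages, and without them 9 features in Tg and 14 in WT were called higher. The PND 0 arrays held the epithelial, fibroblast and, in Tg, muscle and erythroid signal given above, and its part in these age differences was not tested.

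H2ac4, an H2A gene, rose the most of all members in WT. It read 8.77, 8.59, 7.72 and 8.85 at PND 3 in Tg, against 6.596, 7.37 and 7.30 at PND 0, a change of 1.39 ± 0.33 (SE, adjusted p = 0.00138). In WT it read 9.04, 9.05, 9.13 and 9.52 at PND 3, against 7.44, 6.55 and 7.47 at PND 0, a change of 2.03 ± 0.33 (adjusted p = 1.65e-05). The ages did not overlap in either genotype, and the third Tg array at PND 3 was the lowest of its group. The linker histone H1f5 read 9.31, 9.15, 8.28 and 9.23 at PND 3 in Tg, against 7.82, 7.20 and 7.54 at PND 0, a change of 1.48 ± 0.21 (adjusted p = 1.73e-06). In WT it read 9.35, 9.49, 9.54 and 9.50 at PND 3, against 7.71, 7.78 and 8.49 at PND 0, a change of 1.47 ± 0.21 (adjusted p = 2.44e-06). The ages did not overlap in either genotype, and the low Tg array at 8.28 was still above every newborn Tg array.

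The H2B genes H2bc14 and H2bc3 were also among the members that rose most. H2bc14 rose by 1.02 ± 0.25 in Tg and 1.66 ± 0.25 in WT (adjusted p = 0.00193 and 5.31e-06), and H2bc3 rose by 1.15 ± 0.29 in Tg and 1.59 ± 0.29 in WT (adjusted p = 0.0026 and 8.77e-05). H1f1 rose by 1.31 ± 0.37 in Tg (adjusted p = 0.00685), but by 0.74 without Tg PND 0 replicate 2, where the call was lost (adjusted p = 0.144). One member fell in Tg. H1f2, which encodes a linker histone, read 9.40, 9.23, 9.32 and 9.08 at PND 3 in Tg, against 10.33, 9.69 and 9.62 at PND 0, and fell by 0.62 ± 0.21 (adjusted p = 0.0258). Without Tg PND 0 replicate 1, the array at 10.33, the difference was -0.39 (adjusted p = 0.244), and the call was also lost without Tg PND 3 replicate 4 (adjusted p = 0.0704). In WT, H1f2 read 9.24, 8.82, 8.89 and 8.68 at PND 3, against 9.35, 9.19 and 9.72 at PND 0, and was not called. The difference between the genotypes in this step was not tested.

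**Figure D1:**
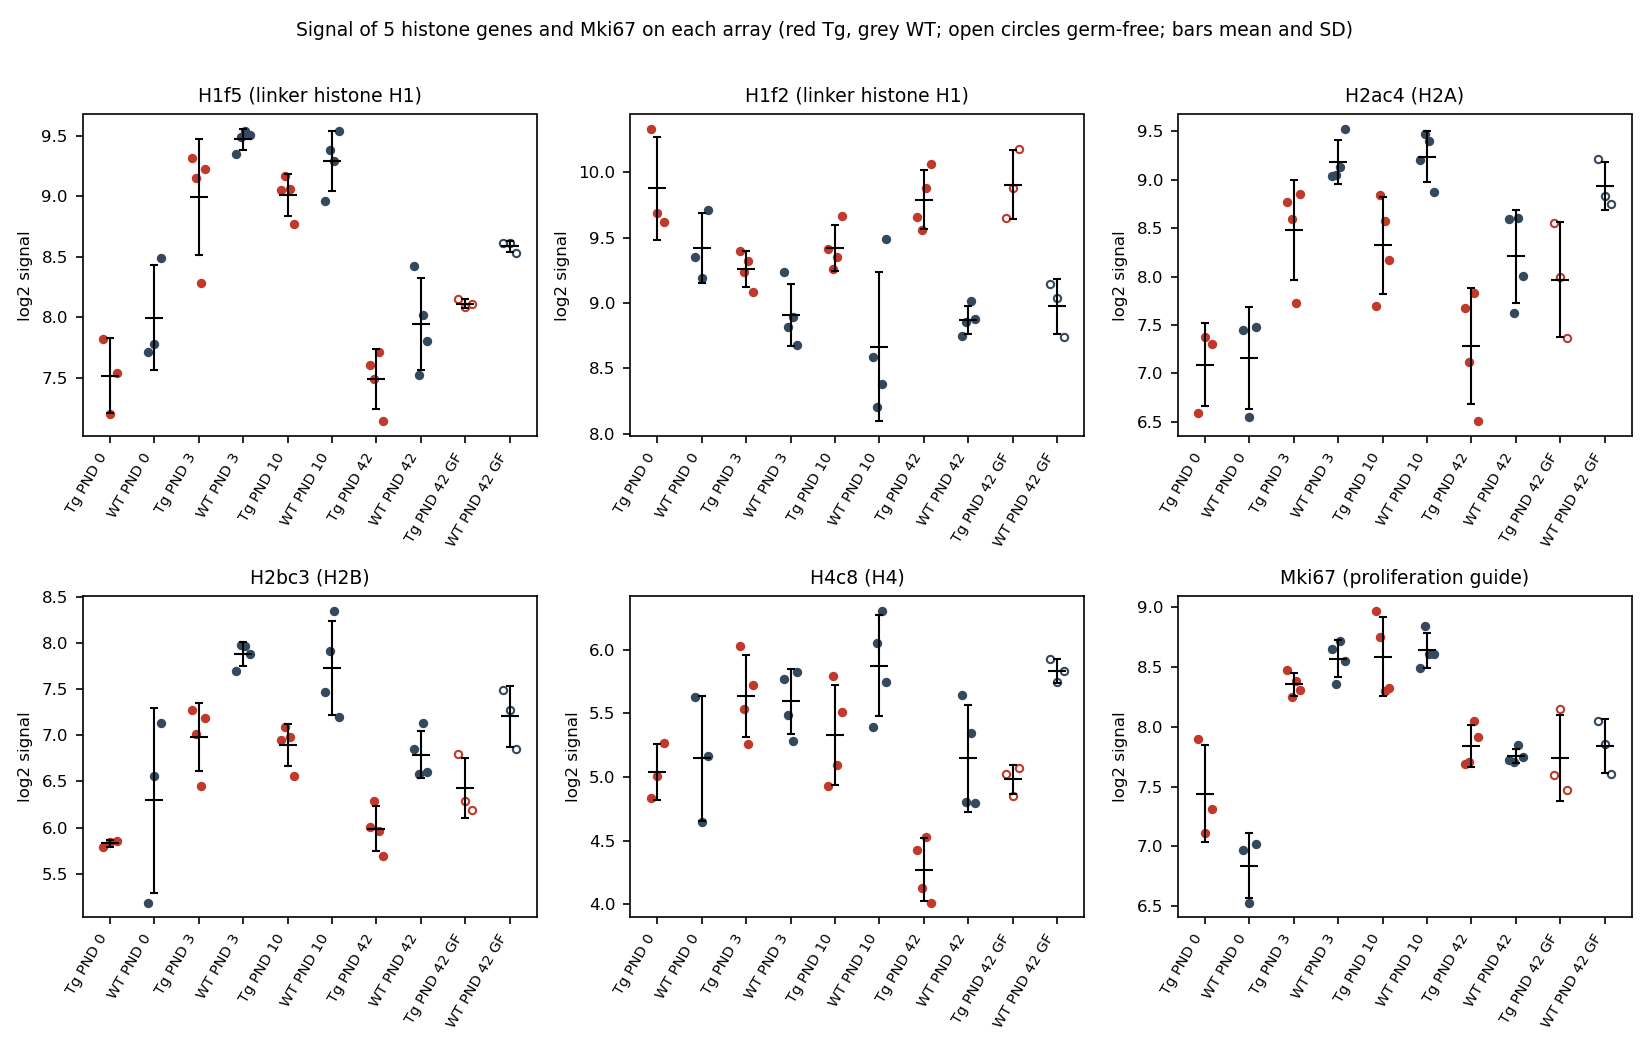
Log2 signal (vertical axis, own scale in each panel, not starting at 0) of H1f5, H1f2, H2ac4, H2bc3, H4c8 and Mki67 on each array of the 10 groups (horizontal axis); red points are Tg, grey points WT and open circles GF arrays, and bars are the group mean and SD. The group means of H1f5 and Mki67 are higher at PND 3 and PND 10 than at PND 0 or PND 42, whereas H1f2 at PND 42 lies between 9.56 and 10.18 in Tg and between 8.74 and 9.14 in WT over both housings.

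From PND 3 to PND 10 limma called 0 members in either genotype, and 0 passed an unadjusted p under 0.05. Over all features 0.518% were called higher and 0.936% lower in Tg, and 0.0311% and 0.100% in WT, while 5.03% were higher and 4.40% lower at the unadjusted limit in Tg, and 2.83% and 3.03% in WT. From PND 10 to PND 42 most called members were lower at the later age. In Tg 2 features were called higher and 9 lower at PND 42, against 2.58% and 2.03% of all features, and in WT 1 was called higher and 7 lower, against 1.32% and 1.19%. The genes that fell in both genotypes were H1f1, H1f5, H2ac21, H4c14 and H4c4. The H2ac21 call was lost in Tg without replicate 2, 3 or 4 of PND 10 or replicate 1, 2 or 4 of PND 42. In WT it was lost without replicate 1, 2 or 3 of PND 10 or replicate 2 or 4 of PND 42. The Tg and WT age steps are each set against their own PND 10 arrays.

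The linker histones H1f1 and H1f5 fell the most. H1f1 read 4.84, 4.92, 5.04 and 4.23 at PND 42 in Tg, against 7.13, 7.07, 6.70 and 6.32 at PND 10, and fell by 2.05 ± 0.34 (adjusted p = 0.000303). In WT it read 5.57, 5.10, 4.89 and 4.79 at PND 42, against 6.37, 7.14, 7.02 and 7.11 at PND 10, and fell by 1.83 ± 0.34 (adjusted p = 0.00178). The ages did not overlap in either genotype. H1f5 fell by 1.52 ± 0.20 in Tg (adjusted p = 7.88e-06) and by 1.35 ± 0.20 in WT (adjusted p = 6.64e-05). The next largest called falls in Tg were those of H2bc18, from a mean of 4.85 to 3.68, near background, and H4c8, from 5.33 to 4.27. In WT they were those of H1f3, from 5.82 to 4.85, and H2bc22, from 5.01 to 4.10. The H2bc22 call was lost without replicate 2 or 4 of PND 10 or replicate 2 of PND 42. Smaller falls were called in both genotypes for 2 H4 genes. H4c14 and H4c4, genes of the core histone H4, fell by 0.96 ± 0.19 and 0.60 ± 0.15 in Tg (adjusted p = 0.00156 and 0.0154) and by 0.80 ± 0.19 and 0.54 ± 0.15 in WT (adjusted p = 0.0143 and 0.0496). The H4c4 call was lost in Tg without replicate 2 or 3 of PND 10 or replicate 2 or 4 of PND 42, and in WT without any 1 PND 10 array or without replicate 2 or 4 of PND 42. The H4c14 call in WT was lost without replicate 2 or 3 of PND 10 or replicate 2, 3 or 4 of PND 42.

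H2bc4 was called higher over the step to PND 42. Its bright feature read 10.05, 10.22, 10.41 and 10.69 at PND 42 in Tg, against 9.39, 9.43, 9.19 and 9.52 at PND 10, and rose by 0.96 ± 0.18 (adjusted p = 0.00121). In WT it read 9.79, 9.82, 10.14 and 9.91 at PND 42, against 8.89, 8.41, 8.52 and 9.30 at PND 10, and rose by 1.13 ± 0.18 (adjusted p = 0.000289). Its dim feature, also called higher in Tg, is given no fold, because its mean of 3.54 at PND 10 was near background. H2bc4 was the only member called higher in both genotypes over this step, and is one of the 3 genes with the longest annotated spans.

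**Figure D2:**
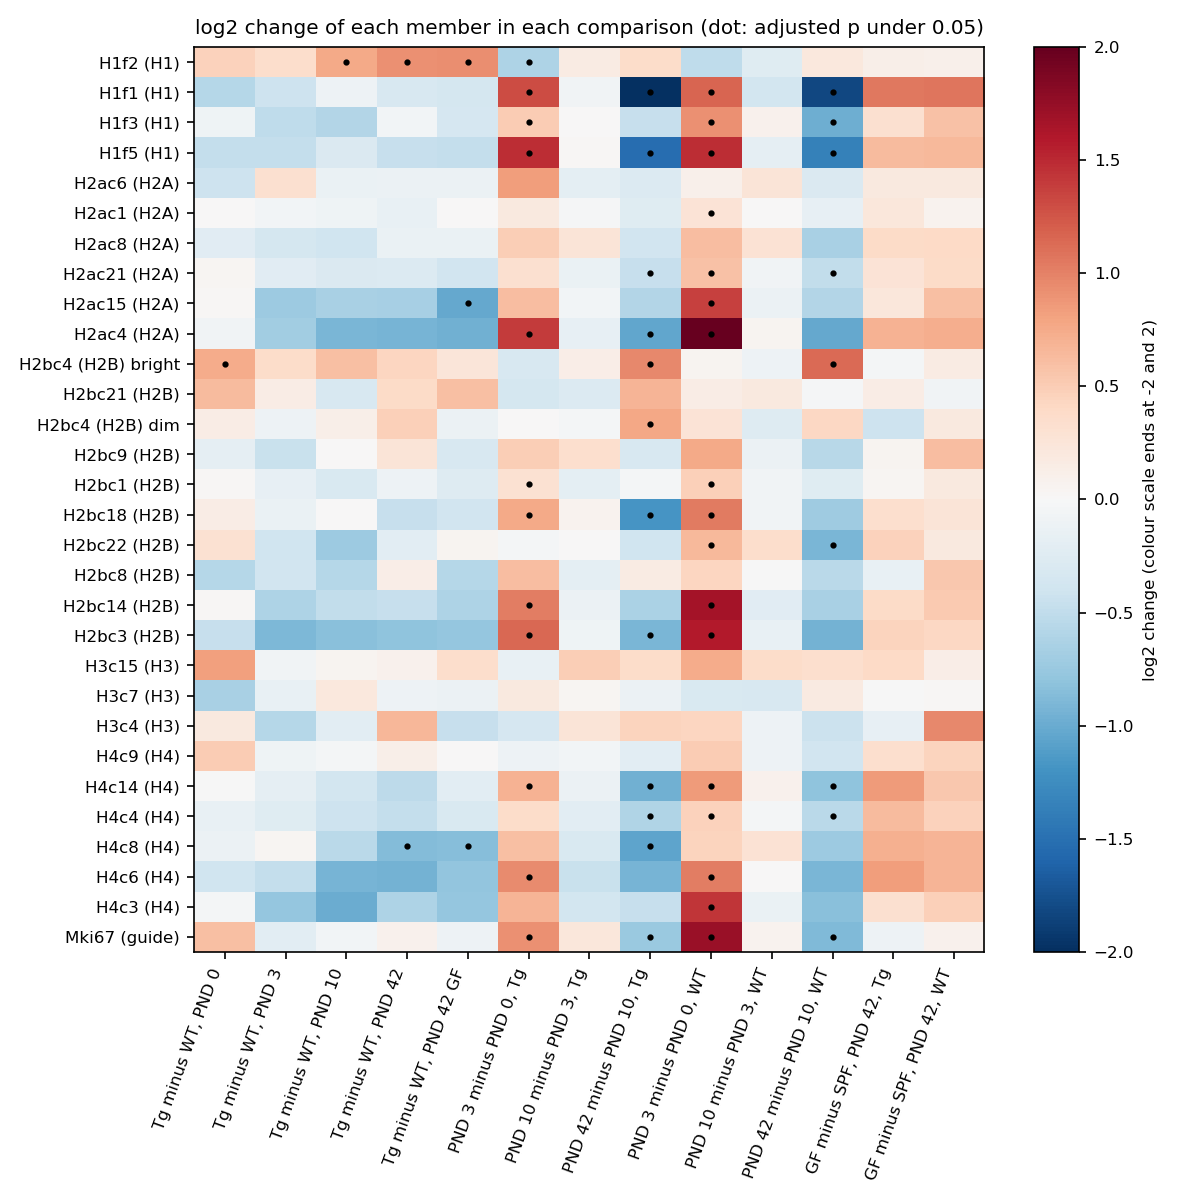
Log2 difference (colour, red higher and blue lower in the group named first, scale ending at -2 and 2) of each histone member and of Mki67 (down the page, by class) in each comparison (across); dots mark an adjusted p under 0.05. The PND 3 minus PND 0 columns are mostly red, with 10 members called higher in Tg and 16 in WT, and the PND 42 minus PND 10 columns mostly blue, with the bright H2bc4 feature red in both.

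Mki67 was higher at PND 3 than at PND 0 and lower at PND 42 than at PND 10 in both genotypes. It read 8.47, 8.24, 8.38 and 8.31 at PND 3 in Tg, against 7.90, 7.11 and 7.31 at PND 0, a rise of 0.91 ± 0.17 (adjusted p = 0.000112), and in WT it rose by 1.73 ± 0.17 (adjusted p = 4.18e-09). From PND 10 to PND 42 it fell by 0.74 ± 0.16 in Tg and 0.88 ± 0.16 in WT (adjusted p = 0.00425 and 0.00128). Set against Mki67 in the same array, 13 members were called lower and 1 higher at PND 3 in Tg, and 20 lower and 0 higher in WT, but Mki67 itself moved, and 79.8% and 96.5% of all features were called lower relative to it and 2.07% and 0.249% higher. From PND 10 to PND 42, 11 members in Tg and 9 in WT were called higher relative to Mki67, against 87.1% and 93.7% of all features, and 2 in each were called lower, against 0.252% and 0.159%. Other genes of DNA copying and mitosis rose at PND 3 too: of 41 DNA replication genes 34 rose in Tg and 39 in WT, and all 29 measured mitosis genes rose in both. Of all features 16.0% rose in Tg and 14.0% in WT. Rrm2, a subunit of ribonucleotide reductase, rose by 3.04 ± 0.22 in WT and Ndc80, a kinetochore protein, by 3.06 ± 0.24 (adjusted p = 4.49e-12 and 3.07e-11). From PND 10 to PND 42, 2 DNA replication genes fell in Tg and 6 in WT, and 8 mitosis genes fell in Tg and 14 in WT. Of all features 2.03% fell in Tg and 1.19% in WT.

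At each single age the genotypes differed by few called members. At PND 0, 1 member was called higher and 0 lower in Tg than in WT, against 2.74% and 1.59% of all features, and it was H2bc4, which read 9.98, 9.09 and 9.63 in Tg and 8.81, 8.45 and 9.23 in WT, a difference of 0.74 ± 0.21 (adjusted p = 0.0421). Its groups overlapped, since the Tg array at 9.09 lay below the WT array at 9.23. Without the library labelled Tg PND 0 replicate 3, 0 members were called at this age, and the call of H2bc4 was also lost without Tg replicate 1 or WT replicate 1 or 2. At an unadjusted p under 0.05, 2 members were higher and 2 lower in Tg at PND 0, against 8.37% and 8.55% of all features, and every Tg array lay below every WT array for 3 and above for 0, against 6.69% and 4.21%. At PND 3, 0 members were called, against 2.17% of all features higher and 1.87% lower. In limma 8 members were lower and 0 higher at PND 3 at an unadjusted p under 0.05, against 7.40% and 5.98% of all features. Every Tg array lay below every WT array for 8 members and above for 0, against 5.92% and 4.63% of all features.

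H2bc3 was one of those 8. It read 7.27, 7.02, 6.45 and 7.18 in Tg at PND 3, against 7.70, 7.98, 7.97 and 7.88 in WT, so that no arrays overlapped. H2ac15, an H2A gene, read 6.40, 6.81, 6.36 and 6.59 in Tg and 6.95, 7.34, 7.44 and 7.31 in WT at PND 3, also without overlap, with a difference of -0.72 ± 0.24 (adjusted p = 0.0954). At PND 3 the mean of 15 granulocyte precursor and neutrophil markers was 5.35 to 6.13 in Tg and 4.77 to 5.27 in WT, and its part in the lower histone values was not tested.

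H1f2 was the member that most often differed at single ages. At PND 10, 1 member was called higher and 0 lower in Tg, against 1.13% and 0.435% of all features, and it was H1f2, at 9.41, 9.26, 9.35 and 9.67 in Tg and 8.59, 8.20, 8.38 and 9.49 in WT (0.76 ± 0.20, adjusted p = 0.0407). The groups overlapped because 1 WT array stood at 9.49, and the call was lost without any 1 of WT replicates 1, 2 and 3 or Tg replicates 1, 3 and 4. At an unadjusted p under 0.05, 13 members were lower and 2 higher at PND 10, against 5.27% and 5.81% of all features, and every Tg array lay below every WT array for 3 and above for 0, against 2.90% and 4.17%. At PND 42 in SPF housing H1f2 read 9.66, 9.56, 9.88 and 10.06 in Tg and 8.75, 8.85, 9.01 and 8.88 in WT (0.92 ± 0.20, adjusted p = 0.00321). In GF housing it read 9.65, 9.88 and 10.18 in Tg and 9.14, 9.04 and 8.74 in WT (0.93 ± 0.23, adjusted p = 0.0111), and that call was lost without Tg or WT replicate 3. At PND 42 the genotypes did not overlap for H1f2 in either housing.

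H4c8 was lower in Tg at PND 42 in both housings. In SPF mice it read 4.42, 4.13, 4.53 and 4.01 in Tg and 5.65, 4.80, 5.35 and 4.80 in WT, a difference of -0.87 ± 0.22 (adjusted p = 0.0149). In GF mice it read 5.02, 4.85 and 5.07 in Tg and 5.93, 5.74 and 5.83 in WT, a difference of -0.85 ± 0.26 (adjusted p = 0.0473). No arrays overlapped in either housing. The GF call was lost on leaving out any 1 of its 6 arrays, and the SPF call on leaving out WT replicate 1, WT replicate 3 or Tg replicate 4. H2ac15 read 6.59, 6.40 and 5.39 in GF Tg and 7.25, 6.97 and 7.22 in GF WT, a difference of -1.02 ± 0.27 (adjusted p = 0.0233). Without Tg replicate 3, the array at 5.39, it was -0.66 (adjusted p = 0.318), and the call was also lost without WT replicate 1 or 3. In SPF mice at PND 42 these calls made 1 member higher and 1 lower, against 2.72% and 1.77% of all features, and in GF mice 1 higher and 2 lower, against 3.14% and 1.77%. At an unadjusted p under 0.05, 10 members were lower and 4 higher in Tg in SPF mice, against 7.29% and 6.52% of all features, and 9 lower and 1 higher in GF mice, against 7.38% and 6.92%. Every Tg array lay below every WT array for 4 members and above for 2 in SPF mice, against 5.64% and 5.59% of all features, and for 10 and 3 in GF mice, against 12.1% and 9.21%.

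Averaged over the 4 genotype pairs from PND 3 on, the members were mostly lower in Tg. This mean of the SPF pairs at PND 3, 10 and 42 and the GF pair was added after seeing the data, and it uses the same arrays as the single pairs and the age steps. It called 13 of 29 members lower and 2 higher, against 8.26% and 6.63% of all features, with a median of -0.30 over the members and 0.00 over all features. By class, 2 of 4 H1, 3 of 6 H2A, 3 of 10 H2B, 0 of 3 H3 and 5 of 6 H4 features were lower, and 1 H1 and 1 H2B feature were higher. The difference was below 0 in all 4 pairs for 14 members, above 0 in all 4 for 2, and of mixed sign for 13. The share of all features with such signs is not given here. The members are read on the same arrays, so these counts are not separate tests. None of the 15 differences reached 2-fold.

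The members that fell most in Tg were H2ac4 at -0.88 ± 0.16 (adjusted p = 0.00016), H2bc3 at -0.83 ± 0.14 (adjusted p = 6.4e-05), H4c3 at -0.79 ± 0.19 (adjusted p = 0.00275) and H4c6 at -0.78 ± 0.16 (adjusted p = 0.000788). H2ac4 read 7.70, 8.84, 8.58 and 8.17 in Tg and 9.20, 9.47, 9.40 and 8.88 in WT at PND 10. At PND 42 it read 7.67, 7.12, 7.83 and 6.51 in Tg and 8.59, 7.62, 8.60 and 8.01 in WT in SPF mice. In GF mice it read 8.55, 7.99 and 7.36 in Tg and 9.22, 8.84 and 8.75 in WT, and of these 3 pairs the SPF pair at PND 42 overlapped and the others did not. A further 8 members that fell were H2ac15, H4c8, H2bc14, H1f5, H1f3, H4c4, H4c14 and H2ac21, with differences from -0.76 to -0.30. H2bc1 was also called, but it was near background in every group, with means of 3.21 to 3.69, so that 12 of the 13 lower members had signal above that level. Leaving out any 1 array gave 15 or 16 called members, and no member lost its call. Without the PND 10 pair 12 members were called, and H4c14, H1f3 and H2bc1 were no longer among them. The 14 members that were not called lay between -0.35 for H2bc8 and 0.20 for H2bc21, and they included the 3 H3 features at 0.10 ± 0.27 for H3c15, -0.14 ± 0.12 for H3c4 and -0.04 ± 0.09 for H3c7.

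H1f2 and H2bc4 were the 2 members higher in Tg in the mean. H1f2 differed by 0.74 ± 0.10 (adjusted p = 2.79e-06) and H2bc4, through its bright feature, by 0.41 ± 0.10 (adjusted p = 0.00277), while its dim feature was not called. Both lie in the same stretch of chromosome 13 as members that were lower: H1f2 starts at 23738807, H2bc3 at 23746734 and H2ac4 at 23751088. The sequence window before H1f2 holds the H1 box and CCAAT, as do those before H1f3 and H1f5, which were lower in Tg. TATAA was found before H1f1, H1f3 and H1f5 but not before H1f2. The part of these motifs in the genotype differences was not tested.

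**Figure D3:**
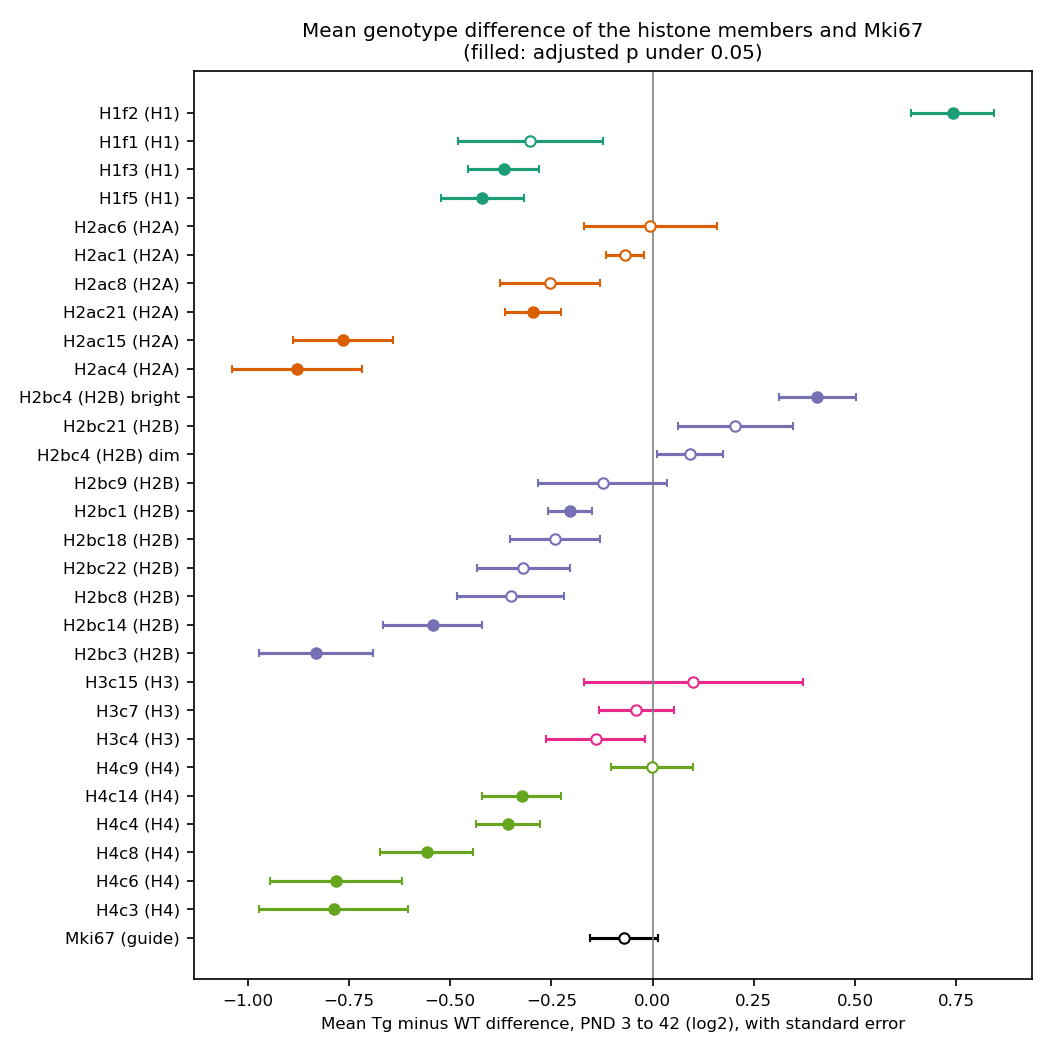
Mean log2 difference between Tg and WT over the 4 pairs from PND 3 on (horizontal axis, Tg minus WT) for each member (down the page, by class) and Mki67; bars are standard errors and filled points passed an adjusted p under 0.05. H1f2 at 0.74 and H2bc4 at 0.41 lie right of 0, 13 members lie left of it as filled points, and Mki67 is at -0.07.

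Mki67 did not differ detectably between genotypes in the same mean, at -0.07 ± 0.08 (adjusted p = 0.726), and was called in no single pair. At PND 0 its difference was 0.60 ± 0.19 (adjusted p = 0.0632), with all 3 Tg arrays above the WT arrays. Relative to Mki67, 7 members remained lower in Tg in the mean (H2bc14, H4c8, H2bc3, H2ac4, H2ac15, H4c6 and H4c3) and 2 were higher (H1f2 and H2bc4), against 1.98% and 4.84% of all features. At single ages this comparison called 15 members lower at PND 0, against 62.7% of all features, and 0 higher, against 0.805%. It called 0 members at PND 3, against 2.00% of all features higher and 0.128% lower, and 0 at PND 10, against 0.612% and 0.0346%. At PND 42 it called 1 higher and 1 lower in SPF mice, against 1.21% and 0.677%, and 1 higher and 0 lower in GF mice, against 1.98% and 0.276%. Other genes of DNA copying and division were lower in Tg in the mean, too, where 8.26% of all features were called lower and 6.63% higher. Of 29 mitosis genes 25 were lower and 0 higher in the mean, led by Anln, a cytokinesis scaffold (-0.89 ± 0.11, adjusted p = 7.24e-07), and Kif11, a spindle motor (-0.67 ± 0.10, adjusted p = 1.53e-05). Of 41 DNA replication genes 22 were lower and 0 higher, led by Pola1, the catalytic subunit of DNA polymerase alpha (-0.54 ± 0.08, adjusted p = 3.66e-06).

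Some genes that act on histones were also lower in Tg in the same mean. Of all features 8.26% were called lower in it and 6.63% higher. Of 21 genes of histone transcription and mRNA 3′ processing 4 were lower and 0 higher in Tg: they included Lsm10, of the U7 particle that cuts histone mRNA (-0.66 ± 0.13, adjusted p = 0.000598), and Snrpb, an Sm core protein (-0.49 ± 0.09, adjusted p = 0.000108). Slbp was lower by one of its features (-0.38 ± 0.11, adjusted p = 0.0116) and not called by the other, and Npat was not called (adjusted p = 0.403). Of 20 histone chaperone genes 5 were lower and 1 higher, led by Asf1b, a chaperone of H3 and H4 (-0.70 ± 0.13, adjusted p = 0.000134). Of 10 replacement and variant histone genes 4 were lower and 0 higher, led by H2az2 (-0.65 ± 0.10, adjusted p = 1.82e-05). Of the 25 regulators of entry into S phase 8 were lower and 3 higher, among them E2f8, a repressor of E2F target genes, which was lower by 0.80 ± 0.09 (adjusted p = 7.32e-08), and the cyclin Ccnd1, which was higher by 0.64 ± 0.14 (adjusted p = 0.00174).

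Markers of other cells moved with genotype as well. In the same mean 5 of 15 granulocyte precursor and neutrophil markers were higher and 1 lower in Tg, and 4 of 12 T and NK cell markers were higher and 1 lower. Over all features 6.63% were higher and 8.26% lower. Summed as means over the list, the T and NK markers were 4.27 to 4.85 in GF Tg and 3.89 to 4.00 in GF WT arrays. In SPF mice the genotypes overlapped for this mean at PND 3, 10 and 42. At PND 10 the mean of the granulocyte and neutrophil markers was 4.46 to 4.83 in Tg and 4.87 to 5.11 in WT. At PND 42 it was higher in Tg, at 4.513 to 5.065 against 4.25 to 4.35 in SPF mice. In GF mice it was 4.91 to 5.63 in Tg against 4.34 to 4.42 in WT. Their part in the genotype differences of the histone genes was not tested.

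Between GF and SPF mice at PND 42 no member was called in either genotype. Over all features 0.0760% were called higher and 0.0657% lower in GF Tg, and 0.0104% and 0.0553% in GF WT. The differences of the members were mostly above 0 in GF mice, by a median of 0.32 in Tg and 0.45 in WT. Over all features the median was 0.00 in Tg and 0.01 in WT. Of the members, 24 of 29 differences in Tg and 28 of 29 in WT were above 0. All members are read on the same arrays, so these counts are not separate tests. In limma 8 members in Tg and 12 in WT were higher in GF mice at an unadjusted p under 0.05, against 4.22% and 2.37% of all features, and 1 in Tg and 0 in WT were lower, against 3.55% and 2.14%. Every GF array lay above every SPF array for 9 members in each genotype, against 3.62% of all features in Tg and 4.04% in WT, and below for 0, against 4.45% and 3.78%.

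H4c14 came closest to a call. It read 9.58, 9.58 and 9.60 in GF Tg and 8.84, 8.57, 9.05 and 8.49 in SPF Tg (0.85 ± 0.20, adjusted p = 0.0954), and 9.96, 9.80 and 9.64 in GF WT and 9.61, 9.10, 9.17 and 9.19 in SPF WT (0.53 ± 0.20, adjusted p = 0.904). The housings did not overlap in either genotype. H1f1 read 6.24, 5.48 and 5.71 in GF Tg and 4.84, 4.92, 5.04 and 4.23 in SPF Tg, and H1f5 read 8.15, 8.08 and 8.11 in GF Tg and 7.61, 7.49, 7.71 and 7.14 in SPF Tg, again without overlap. Mki67 differed between housings by -0.10 in Tg and 0.08 in WT, with no call. DNA replication genes had medians of -0.11 in Tg and -0.08 in WT, and mitosis genes -0.05 and 0.13.

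The genotype effect itself was not called as different between ages or housings for any member. In limma 0 members were called for PND 10 against PND 3, with 0 at an unadjusted p under 0.05, while 0.00346% of all features were called higher and 0.0518% lower, and 2.63% and 2.23% at the unadjusted limit. For PND 42 against PND 3, 0 were called, with 2 higher and 1 lower at the unadjusted limit, against 0.705% and 0.522% of all features called and 4.30% and 4.01% at that limit. For PND 42 against PND 10, 0 were called, with 2 higher and 0 lower, against 0.418% and 0.221% called and 3.48% and 4.06%. For GF against SPF, 0 were called, with 0 higher and 2 lower, against 0.00346% and 0% called and 1.70% and 1.44%.

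**Figure D4:**
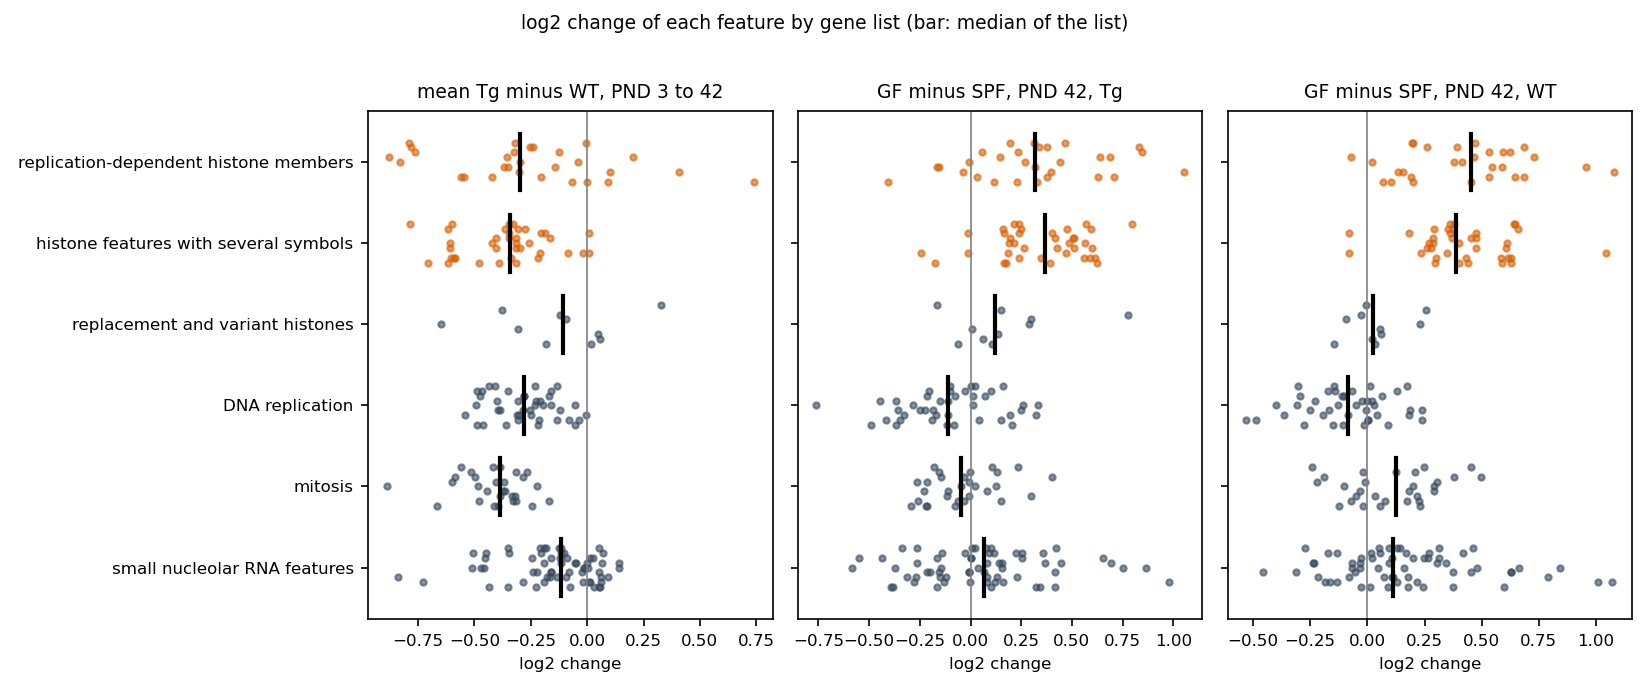
Log2 change of each feature (points, horizontal axis, own scale in each panel) of the histone members, the histone features with several symbols and 4 other lists (down the page) in the mean genotype comparison and in the housing comparison of Tg and of WT; black bars are list medians. In the left panel the members' median of -0.30 lies between DNA replication genes at -0.28 and mitosis genes at -0.39, while in the GF minus SPF panels the members lie at 0.32 in Tg and 0.45 in WT and DNA replication genes at -0.11 and -0.08.

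Histone features that carry several symbols were left out of the members, since near-identical genes share their probes. There were 38, and some repeat the same reading, so their counts are not of separate genes. In the mean genotype comparison 27 were lower and 0 higher in Tg, against 8.26% and 6.63% of all features, with a median of -0.34. Of the 10 H3 features among them 8 were lower, with a median of -0.60, whereas 0 of the 3 H3 members were called. At PND 3, 9 of those 10 H3 features were higher than at PND 0 in each genotype, against 0 of the 3 H3 members. Over all features 16.0% were higher in Tg and 14.0% in WT. From PND 10 to PND 42, 20 fell and 0 rose in Tg, against 2.03% and 2.58% of all features. In WT 21 fell and 0 rose, against 1.19% and 1.32%. Between housings none was called. At an unadjusted p under 0.05, 15 in Tg and 28 in WT were higher in GF mice, against 4.22% and 2.37% of all features.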

How the data were processed

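RNA (12 ng per array) was amplified with the Ovation Pico WTA system V2 and hybridised to Mouse Gene 1.0 ST arrays. The deposited log2 values were made by the authors with RMA in Partek, version 6.5 in the submitters' processing notes and 6.6 in the methods; the methods describe gene-level summaries, whereas the table holds 1 value per transcript cluster. Because such values are background-corrected, quantile-normalised and summarised across probes, differences are compressed at low levels.

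Of 35556 features 28940 were analysed here, and 6616 features with identifiers below the first annotated one were left out. Groups came from the labels. One model of 10 groups was fitted with limma 3.58.1 in R 4.3.3 (moderated, Benjamini-Hochberg over 28940 features). It was tested on simulated data: at PND 3, 30, 42, 49 and 50 of 50 features changed 1.5-, 2-, 3- and 4-fold were recovered, with 7 calls among 28740 unchanged ones. Alternatives left out each array, changed scaling, filter, weights, threshold or groups fitted, or added the replicate number as a block. Members and gene lists were chosen with earlier results of these data known.

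Named were, per class, the 3 brightest features and, per comparison, up to 4 called members each way of largest change; of other lists, up to 3 called genes. Promoters came from RefSeq tables; 24 of 28 genes matched. The labels call the 3 or 4 arrays of a group biological replicates, and that number limits the precision. 38 histone features with several symbols were kept apart.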

Additional observations from a re-analysis of the deposited data

Results flagged for a closer look

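In 12 of 144 groups of 4 arrays tested, 1 array stood apart from the other 3 by more than Dixon's limit; chance gives about 1 in 20. Of these, 6 were the same array, Tg PND 3 replicate 3, which was low for members of several classes. It read 8.28 for H1f5 (others 9.15 to 9.31), 5.57 for H1f1 (7.17 to 7.46), 4.83 for H1f3 (5.33 to 5.40), 8.45 for H2ac21 (8.98 to 9.07), 9.08 for H2bc14 (9.98 to 10.16) and 10.84 for H4c4 (11.37 to 11.44). Its Mki67, at 8.38, lay within its group. In WT PND 10 replicate 1, H1f1 was low at 6.37 (7.02 to 7.14). H2ac15 was low at 5.53 in Tg PND 42 SPF replicate 4 (5.99 to 6.07). H3c7 was high at 4.30 in Tg PND 10 replicate 1 (3.58 to 3.68), where Npat was also high at 6.53 (6.11 to 6.17). H2bc18 was high at 4.49 in WT PND 42 SPF replicate 1 (3.99 to 4.06), and Npat was low at 5.83 in Tg PND 3 replicate 4 (6.15 to 6.22).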

How the results depend on the processing

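No call of a single member turned its direction under any alternative. Differences that were not called were not checked for this. Counts of called members moved as follows. A 2-fold limit left 0 in Tg against WT at PND 0, 10 and 42 and in the mean, 1 in GF mice, 5 and 9 from PND 0 to PND 3 in Tg and WT, and 5 and 3 from PND 10 to PND 42. At PND 0 the count was 0 with all features kept, the compared groups alone, array weights, median centring or no moderation. At PND 3 it was 2 with the compared groups alone or array weights, and 1 without the PND 0 arrays, with median centring or without dim features. At PND 10 it was 0 with all features kept, the compared groups alone, quantile normalisation repeated or no moderation, and 4 without the PND 0 arrays or with array weights. At PND 42 it was 4 with the compared groups alone and 9 with array weights. Array weights also gave 7 from PND 0 to PND 3 in Tg and 14 from PND 10 to PND 42 in WT. Median centring gave 19 from PND 0 to PND 3 in Tg, where it moved the median of all features by 0.25 in Tg and 0.24 in WT. The change of the genotype effect from PND 3 to PND 42 gave 1 with the compared groups alone, array weights or no dim features. Relative to Mki67, array weights gave 4, 2 and 7 at PND 0, 10 and 42, and repeated quantile normalisation gave 1 at PND 42 and 9 from PND 0 to PND 3 in Tg. Rules added after seeing the data gave, at PND 0, 3, 10, 42 and 42 GF, 3, 8, 3, 6 and 13 members without overlap and 4, 8, 15, 14 and 10 at an unadjusted p under 0.05. The cause of these moves was not tested.

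Leaving out 1 array at a time gave 0 to 2 members at PND 0, 0 to 0 at PND 3, 0 to 3 at PND 10, 1 to 6 at PND 42, 0 to 2 in GF mice and 15 to 16 in the mean. The age steps gave 5 to 15, 0 to 0 and 7 to 12 in Tg and 11 to 16, 0 to 0 and 4 to 10 in WT. The housing comparisons gave 0 to 1 in Tg and 0 to 0 in WT, and the changes of the genotype effect 0 to 1. PND 0 gave 0 without Tg replicate 1 or 3 and 2 without WT replicate 2 or 3. PND 10 gave 0 without Tg replicate 1 or 4 or WT replicate 2 or 3, 2 without Tg replicate 2 and 3 without WT replicate 4. PND 42 gave 1 without Tg replicate 4 or WT replicate 1 and 6 without WT replicate 2, and the GF pair gave 0 without Tg or WT replicate 3 and 1 without WT replicate 1. The step to PND 3 in Tg gave 5 without Tg PND 3 replicate 4. The step to PND 42 gave 7 in Tg without Tg PND 10 replicate 2 or 3 or PND 42 replicate 4, and in WT 4 without WT replicate 2 of either age and 5 without WT PND 10 replicate 3 or PND 42 replicate 4. With the replicate number as a block, the genotype pairs gave 1, 0, 1, 2 and 2, the age steps 11, 0 and 9 in Tg and 14, 0 and 6 in WT, and the mean 15. Same-numbered Tg and WT arrays deviated together with correlations of -0.13 to 0.24. Such weak correlations cannot tell whether the numbers pair them, and the labels do not say so.

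With 3 or 4 arrays per group, a 1.5-fold difference was recovered for 19 to 33 of 50 simulated features per genotype pair, so small differences are often missed. Features near the array median of 3.72 to 4.06 carry little signal over background.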
